A study of Rattus norvegicus with 24 samples.

Results

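Tetracycline hydrochloride, an antibiotic of the tetracycline class, was given to 4 of the 24 male F344 rats in a liver expression series that covered 6 compounds. The 4 arrays were those with this compound in their label, and all 11508 genes with a measurable probe were followed, also where a change stayed below 2-fold. The treated rats received 1000 mg/kg/day of tetracycline hydrochloride in water by gavage (5 ml/kg) for 28 days, and their age is labelled as 5 weeks. Their control was RNA pooled from vehicle rats that received water, which the design describes as 4 animals. On every array the liver RNA of 1 treated rat carried the Cy3 dye and the pool carried Cy5, so the pool counted as 1 control sample and its own spread entered no test. The 20 rats of the comparison compounds, 4 each, received corn oil with 1,2-dichlorobenzene (300 mg/kg/day), 3-(4-chlorophenyl)-1,1-dimethylurea (monuron, 250 mg/kg/day), 1-amino-2-methylanthraquinone (150 mg/kg/day), 1,2,3-trichloropropane (50 mg/kg/day) or hexachloroethane (500 mg/kg/day), on the same strain, sex, age and schedule. The design lists tetracycline hydrochloride and 1,2-dichlorobenzene as non-carcinogens and the others as carcinogens.

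Tetracyclines stop bacterial growth by binding the small ribosomal subunit, and at high exposure they also slow translation on the ribosomes of mitochondria, which descend from bacteria. In liver, high doses are known for microvesicular steatosis, in which small fat droplets fill hepatocytes while fatty acid oxidation and the export of very low density lipoprotein are reduced. Given by mouth they also act on the bacteria of the gut, and they bind calcium and other divalent metals.

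Each value below is a log2 ratio of treated over vehicle signal after background correction and loess scaling, so a value of 1 is a 2-fold higher level in the treated rat. Against vehicle a gene was called at a limma adjusted p under 0.05 with the same sign in all 4 rats. On the tetracycline arrays the scanner marked 67.5 to 71.7% of treated signals and 72.3 to 75.9% of vehicle signals as clearly over background. Because the treated RNA always had the same dye, a dye effect remains in the ratio to vehicle, whereas an effect alike on all arrays cancels in tetracycline minus the mean of the other 5 compounds. Tetracycline was the compound given in water and lay on a slide of its own, so compound, slide, solvent and pool cannot be told apart. The tetracycline and hexachloroethane slides were scanned on the same day, and that pair gives a comparison within 1 scan day. In the bulk tissue, fewer cells of a type and less RNA per cell cannot be told apart.

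Of the 11508 genes tested, 3902 were called against vehicle (33.9%), 1628 higher (14.1%) and 2274 lower (19.8%). Counts of called members in the gene lists below are to be read beside these shares. Most of these changes were small: the median called gene was 1.16-fold higher or 1.16-fold lower, and 3872 of the 3902 stayed under 2-fold. At 2-fold or more 17 genes rose and 13 fell (0.261% of genes). The rats did not respond to the same degree. Rat 1 had 113 genes at 2-fold or more in either direction, rat 3 had 72, rat 4 had 38 and rat 2 had 35, and the correlation of log2 ratios over genes was 0.74 between rats 1 and 2 but 0.38 between rats 1 and 4. Scaling mattered to direction. When arrays were centred on their median over all probes, without loess, the median gene stood at -0.23 instead of -0.02, and 2595 genes were called higher and 6209 lower. With the median centred on the genes tested instead, a setting tried after the data were seen, 3823 were called higher and 3502 lower. Of 148 genes named here, 0 changed sign with the deposited scanner log ratio and 1 with the deposited series table. Under centring on all probes 39 changed sign, and 28 under centring on the genes tested. For this reason the larger gene lists are also given by their median relative to the median gene under median centring, called the relative median below, and calls against the other compounds stand beside calls against vehicle. Where the deposited ratios gave such a list median the other sign, their values are added, also relative to the median gene. Probes of a gene did not always agree either. Of 106 called genes named here with other kept probes, 20 had an other probe of opposite sign, and 37 more had one over 1.5 times smaller.

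Both tests together held 707 genes called higher (6.14%) and 993 called lower (8.63%) in tetracycline, against vehicle and against the mean of the other 5 compounds. Of these, 268 higher and 300 lower genes also passed within the scan day against hexachloroethane (2.33% and 2.61%). A further 851 genes higher against vehicle and 1183 lower against vehicle were not called against the other compounds, and 70 and 98 had the opposite call there.

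The transcription factor Egr1, an immediate early gene induced by growth factors and stress, showed the largest increase of a named gene. Its log2 ratios were 2.42, 2.08, 1.82 and 0.88 in rats 1 to 4. All 4 lay above 0, with a mean 3.48-fold above vehicle (log2 1.80, SE 0.33, adjusted p = 0.00025), and both other Egr1 probes averaged 1.56 and 1.59. The other 5 compounds averaged 0.27, and the difference of 1.53 passed the test (SE 0.36, adjusted p = 0.00311), as did the difference of 1.94 from hexachloroethane (adjusted p = 0.00707). Of the 24 measured genes of the immediate early and stress kinase list, Egr1 and Ccn1, a matricellular protein gene (0.47), were called higher and none lower. The list median was 0.06, and relative to the median gene 0.12 under median centring.

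The next largest increases were in genes of fatty acid handling and detoxification. Acsm2, a mitochondrial medium-chain acyl-CoA synthetase that acts in glycine conjugation, had log2 ratios of 2.28, 1.41, 1.75 and 0.64, a mean of 2.87-fold (adjusted p = 1.62e-06). Cd36, the fatty acid translocase that takes up long-chain fatty acids, had 2.18, 0.95, 1.34 and 0.62, a mean of 2.42-fold (adjusted p = 5.07e-05), and its 4 other probes averaged 0.84 to 0.98. In both genes rat 1 was highest and rat 4 lowest. Neither was called against the mean of the other compounds, which was 1.13 for Acsm2 (difference 0.39, adjusted p = 0.128) and 1.19 for Cd36 (difference 0.09, adjusted p = 0.792). These means cover a wide range, from 0.27 to 2.16 for Acsm2 and from -0.29 to 2.52 for Cd36. Against hexachloroethane Acsm2 was higher by 1.25 (adjusted p = 0.00173), and Cd36 was not called (difference 0.60, adjusted p = 0.156). Gsta3, a glutathione transferase, had 2.72, 0.82, 2.27 and 0.35, a mean of 2.91-fold (log2 1.54), but its 2 other probes averaged 0.82 and 0.70. The other compounds averaged a log2 ratio of 4.28 for Gsta3. The difference, tetracycline minus the others, was -2.74 (adjusted p = 1.93e-06). From hexachloroethane alone the Gsta3 difference was -0.84, which missed the test (adjusted p = 0.148).

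**Figure D1:**
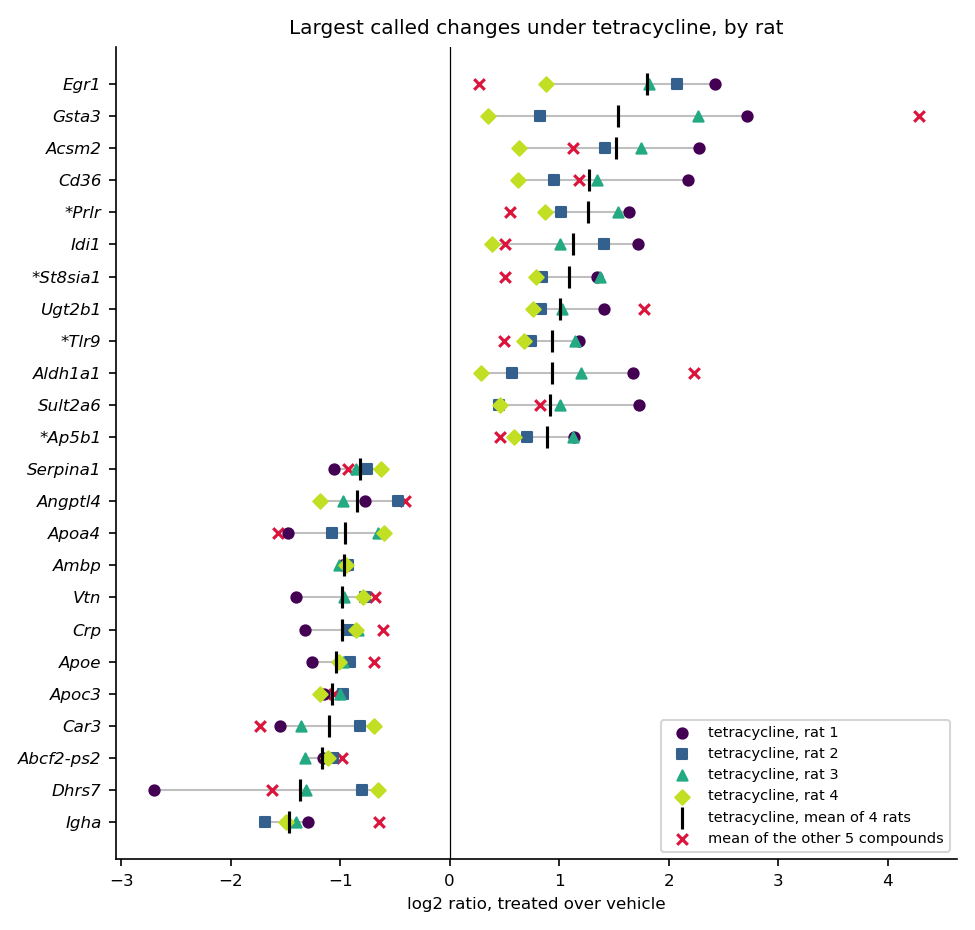
Log2 ratio of treated over vehicle (x axis) for the 12 largest increases and 12 largest decreases called under tetracycline, with 1 symbol for each of the 4 rats, a black bar at their mean and a red cross at the mean of the other 5 compounds. An asterisk marks genes measured by a probe that holds the 7-base motif described in the text. Rat 1 lies farthest from 0 and rat 4 nearest in Acsm2 and Cd36, and Gsta3 and Aldh1a1 have their red cross to the right of all 4 rats.

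Among the decreases, Igha, the heavy chain of immunoglobulin A that plasma cells make, was the lowest gene with a full symbol. Its log2 ratios were -1.30, -1.68, -1.40 and -1.49, a narrow range with no overlap with 0, and its mean was 2.77-fold below vehicle (log2 -1.47, SE 0.13, adjusted p = 4.77e-08). The other Igha probe averaged -1.43. The other compounds averaged -0.65, and the difference of -0.82 passed the test (adjusted p = 0.000145), whereas the difference from hexachloroethane within the scan day was -0.51 and missed it (adjusted p = 0.0508). Abcf2-ps2, which carries a pseudogene symbol, was at -1.15, -1.06, -1.32 and -1.11. It was low under every other compound too, with compound means from -1.03 to -0.92 and an average of -0.98. The difference of -0.18 narrowly passed the test (adjusted p = 0.0491), and that of -0.19 from hexachloroethane missed it (adjusted p = 0.146). Dhrs7, a dehydrogenase/reductase of the endoplasmic reticulum, was at -2.70, -0.80, -1.31 and -0.65, but its other probe averaged 0.16, so its probes disagreed. Under the other compounds Dhrs7 averaged -1.62, and the difference of 0.26 missed the test (adjusted p = 0.516). Car3, the carbonic anhydrase of male rat liver, was at -1.55, -0.82, -1.36 and -0.69, and here the other compounds averaged -1.73, below tetracycline (difference 0.63, adjusted p = 0.0318).

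The gene list for growth hormone signalling and sex-biased liver genes held Dhrs7, Car3, Cyp2c11 (-0.70), the main male-specific cytochrome P450, and Igfals (-0.30), the growth hormone-dependent carrier subunit of circulating IGF1, among 6 of 19 members called lower. Prlr was called higher, as was Hsd17b2 (0.25), a steroid dehydrogenase named after its value was seen. By comparison, 19.8% of all genes were called lower and 14.1% higher. The list median was -0.19, and -0.41 under the other compounds, and -0.50 relative to the median gene under median centring. Igfals lost its call without rat 1, rat 2 or rat 4 (adjusted p = 0.209, 0.109 and 0.111).

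Several of the larger increases came from probes that share a run of bases. The run GCCTGCC was found after the values were seen, and it occurs in 55 of the 16085 kept probes (0.342%), each 60 bases long. The probes below are shown because they measure the same gene with and without the run, which is in capitals. They are given 5′ to 3′ as in the array design.
St8sia1, with the run: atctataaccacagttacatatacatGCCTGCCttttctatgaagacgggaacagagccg
St8sia1, without it: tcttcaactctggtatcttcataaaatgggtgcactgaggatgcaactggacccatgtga
Tlr9, with the run: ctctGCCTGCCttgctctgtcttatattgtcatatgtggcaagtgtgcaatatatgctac
Tlr9, without it: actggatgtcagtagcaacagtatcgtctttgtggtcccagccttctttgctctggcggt
Cox4i2, with the run: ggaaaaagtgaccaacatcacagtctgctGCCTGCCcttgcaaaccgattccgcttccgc
Cox4i2, without it: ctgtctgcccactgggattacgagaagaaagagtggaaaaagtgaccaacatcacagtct
Prlr, with the run: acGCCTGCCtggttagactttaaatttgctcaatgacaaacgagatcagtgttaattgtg

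The St8sia1 probe with the run, for a sialyltransferase of ganglioside synthesis, read 1.34, 0.85, 1.38 and 0.78 in rats 1 to 4, and the probe without it read -0.18, -0.14, -0.27 and -0.11. For Tlr9, a receptor for bacterial DNA, the probe with the run read 1.18, 0.74, 1.14 and 0.68 and the other -0.15, 0.02, -0.00 and -0.07. For Cox4i2, an isoform of a cytochrome c oxidase subunit, they averaged 0.74 with the run and -0.06 without. The probes of a gene thus disagreed in size or sign, and the 3 genes are called higher here through the brighter probe, which holds the run. The probes without it were dim, with a mean log2 signal of both dyes of 6.96 for St8sia1, 7.41 for Tlr9 and 6.54 for Cox4i2. Whether the dim signal kept their ratios small was not tested, so they do not show that a gene was unchanged. Prlr, the prolactin receptor, was measured by 3 kept probes that overlap and all hold it, and in the brightest of these, printed above, its 4 rats read 1.64, 1.01, 1.53 and 0.87. Ap5b1 (0.89), a subunit of an adaptor complex, and Dpf1 (0.82), a chromatin protein of neurons, had no other probe. Hnf4a, a hepatocyte nuclear receptor, averaged 0.71 with the run and 0.17 without.

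Over the 29 probes with the run that were dim (mean log2 signal of both dyes under 10), the median ratio was 0.78, 0.49, 0.91 and 0.48 in tetracycline rats 1 to 4, against -0.03 to -0.02 for the 9017 other dim probes. Rats 1 and 3 were high and rats 2 and 4 low, the order also seen in Tlr9 and in St8sia1, whose probe is itself among the 29. The same probes had compound medians of 0.67 under tetracycline, 0.70 under monuron, 0.66 under 1-amino-2-methylanthraquinone, 0.35 under hexachloroethane, 0.09 under 1,2-dichlorobenzene and 0.07 under 1,2,3-trichloropropane. Among probes with the run at a mean log2 signal of 12 or more (10 probes) the median was 0.01. The reverse complement, GGCAGGC, occurs in 28 kept probes (0.174%), whose median was 0.01. In 19 genes with probes of both kinds, the probe with the run read higher in 16, with medians of 0.40 with it and -0.04 without. Of 42 genes measured by a probe with the run, 27 were called higher and 2 lower, beside 14.1% and 19.8% of all genes. They included 5 of the 17 genes at 2-fold or more higher. The run was found in these same values, so the counts and medians given here are no test of it. What sets these values was not tested. Without those probes 1604 genes were called higher and 2273 lower.

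**Figure D2:**
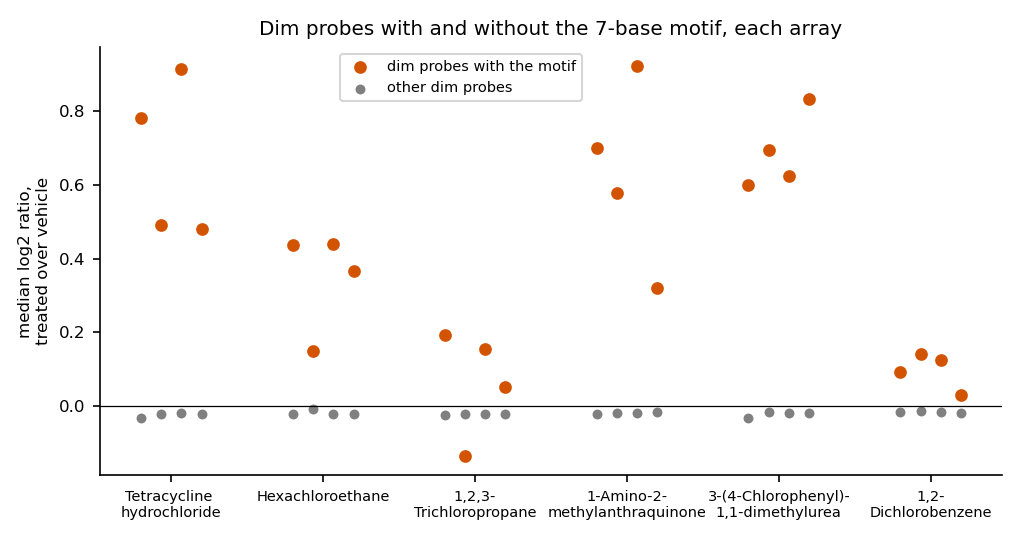
Median log2 ratio of treated over vehicle (y axis) on each of the 24 arrays, for the 29 dim probes with the run GCCTGCC (orange) and the 9017 other dim probes (grey), with tetracycline at the left. The orange medians under tetracycline lie between 0.48 and 0.91, and the grey medians lie near 0 on every array.

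Of 19 measured genes of cholesterol synthesis 7 were called higher and none lower, beside 14.1% of all genes called higher, with a list median of 0.29 against -0.02 for all genes and 0.17 for the list under the other compounds. Idi1, which makes the isoprenoid building block dimethylallyl diphosphate, had log2 ratios of 1.72, 1.41, 1.01 and 0.39, a mean of 2.19-fold (adjusted p = 3.12e-05), above the other compounds by 0.62 (adjusted p = 0.0143). Squalene synthase, Fdft1, had 0.59, 0.55, 0.70 and 0.28. Further enzymes of the sterol steps, Hsd17b7 and Ebp, averaged 0.51 and 0.39, and each was also above the other compounds (adjusted p = 0.00102 and 0.0111). The list medians by rat were 0.59, 0.52, 0.19 and 0.01, so rats 1 and 2 were high and rat 4 stood at 0. Without rat 4, 12 of the 19 members were called. Relative to the median gene the list median was 0.05 under median centring, where 0 members were called higher and 5 lower. It was 0.36 with the scanner log ratio and 0.35 in the series table, each with 7 members called higher and 0 lower. Against the other compounds 5 members were called higher and none lower, and against hexachloroethane 1 was higher and 1 lower.

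Of 20 genes of bile acid synthesis, conjugation and transport 6 were called higher and 1 lower, beside 14.1% and 19.8% of all genes. The list median was 0.06, and -0.27 relative to the median gene under median centring. With the scanner log ratio and with the series table it was 0.12 and 0.13 relative to the median gene, each with 6 called higher and 0 lower. The uptake carrier Slc10a1, known as NTCP, had 0.50, 0.43, 0.27 and 0.22, but its 2 other probes both averaged 0.04. The canalicular bile salt export pump, Abcb11, had 0.58, 0.45, 0.43 and 0.35, and the uptake carrier Slco1a4 had 0.57, 0.41, 0.48 and 0.13. All 3 were above the mean of the other compounds, by 0.38, 0.54 and 0.53 (adjusted p = 1.88e-05, 0.00378 and 3.68e-05), and above hexachloroethane (adjusted p = 1.22e-05, 0.0207 and 1.63e-05). The fatty acid and bile acid CoA ligase Slc27a2 was at 0.27, and the conjugating enzyme Baat was called lower at -0.27, with its other probe at 0.11. Slc10a1, Abcb11, Slco1a4 and Slc27a2 changed sign under median centring. Cyp7a1, the rate-limiting enzyme of bile acid synthesis, was not called, at -0.53, -0.19, -0.76 and -0.84 (adjusted p = 0.239).

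Among 22 genes of glucose metabolism 2 were called higher and 2 lower (median -0.08, relative median -0.30). The glucose carrier of hepatocytes, Slc2a2 (GLUT2), was at 0.49, 0.48, 0.49 and 0.54, with almost no spread between rats. That is 1.41-fold above vehicle (adjusted p = 1.51e-05), above the other compounds by 0.44 (adjusted p = 0.000229) and above hexachloroethane by 0.66 (adjusted p = 0.000134). Under median centring its mean was -0.0016. The glucokinase regulator Gckr was at 0.19 and lost its call without rat 3 or rat 4 (adjusted p = 0.0921 and 0.119). Gys2, liver glycogen synthase, was at -0.23 and Fbp1, of gluconeogenesis, at -0.21, the Fbp1 call being lost without rat 1 (adjusted p = 0.062).

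Genes tied to steatosis gave a mixed picture. Of 18 genes for lipid droplets, lipoprotein assembly and lipid uptake 2 were called higher, Cd36 and the droplet coat gene Plin2, and 7 lower (median -0.09, and -0.42 relative to the median gene under median centring). Plin2 had 0.28, 0.19, 0.32 and 0.56, and its call was lost without rat 4 (adjusted p = 0.0757). The other compounds averaged 0.26 for it (adjusted p = 0.616 for the difference). Apob, the structural protein of very low density lipoprotein, had -0.64, -0.38, -0.27 and -0.24, with all 4 below 0 (adjusted p = 0.00154). Apoc3, a lipase inhibitor, averaged -1.08, Apoe, a ligand of lipoprotein receptors, -1.04, Apoa4, of chylomicrons and lipoproteins, -0.95, and Apoa1, of high density lipoprotein, -0.45. The 2 other Apoc3 probes, which hold the run GCCTGCC, averaged 0.20 and 0.22. Apoe and Apoa1 were also below the other compounds, by 0.35 and 0.36 (adjusted p = 0.00188 and 0.00542), but Apob, Apoc3 and Apoa4 were not. The triglyceride transfer protein gene Mttp was not measured by a kept probe. Of 15 genes of fatty acid and triglyceride synthesis Gpam (0.35) and Dgat1 (0.15), which make the first and last steps of triglyceride assembly, were called higher and Agpat2 (-0.25), of an intermediate step, lower (relative median -0.41). This synthesis list stood at 0.12 with the scanner log ratio and 0.10 in the series table, relative to the median gene. The Dgat1 call was lost without rat 2 or rat 4 (adjusted p = 0.101 and 0.0748).

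Fatty acid oxidation did not move one way. Of 30 genes of this list, which are targets of PPARalpha, 3 were called higher and 5 lower, beside 14.1% and 19.8% of all genes. The list median was 0.02, and -0.26 relative to the median gene under median centring. It was 0.07 with the scanner log ratio and 0.04 in the series table, each relative to the median gene and with 4 called higher and 3 lower. Angptl4, a secreted lipase inhibitor, had -0.77, -0.47, -0.97 and -1.18 (adjusted p = 0.000318), a difference of -0.44 from the other compounds that missed the test (adjusted p = 0.0593). Decr1 (0.29), Etfb (0.26) and Acaa2 (0.24), of mitochondrial oxidation, were called higher. Cpt1a, the entry step for fatty acids into mitochondria, had 0.36, 0.40, -0.31 and 0.18 and was not called.

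**Figure D3:**
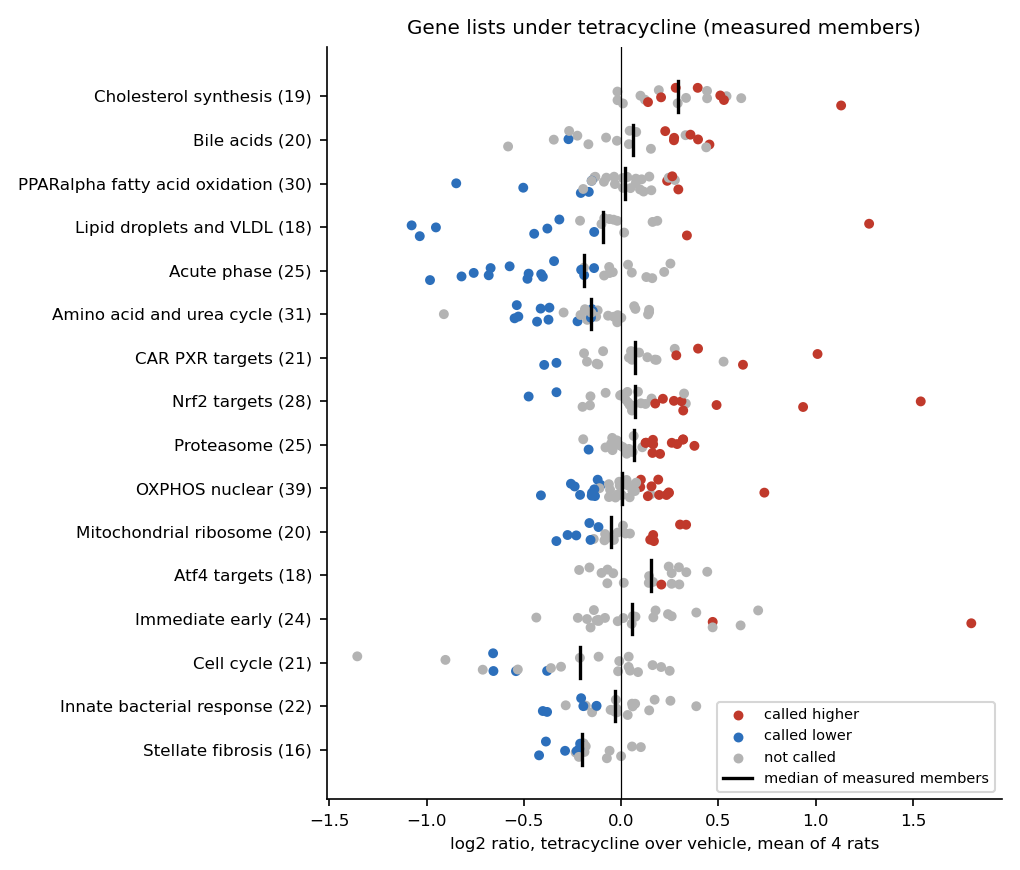
Mean log2 ratio of tetracycline over vehicle (x axis, 4 rats) for each measured member of 16 gene lists (rows, number measured in brackets), red where called higher, blue where called lower and grey where not called, with a black bar at the list median. Cholesterol synthesis has its median at 0.29 and acute phase proteins at -0.19.

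Plasma protein genes were lower, along with other very bright probes. Of 25 acute phase genes 14 were called lower and none higher (median -0.19). Crp, C-reactive protein, had -1.32, -0.92, -0.83 and -0.85 (its 2 other probes averaged -0.07 and -0.45), Serpina1, the alpha-1 antitrypsin gene, had -1.05, -0.75, -0.85 and -0.63, and Hpx, the haem scavenger hemopexin, had -1.10, -0.50, -0.78 and -0.65. Of 12 hepatocyte markers 7 were called lower, Ambp at -0.96, Tf at -0.68 and Ahsg at -0.62 among them, and 1 higher (Hnf4a, through its probe with the run). Vtn, the adhesion protein vitronectin, averaged -0.98. Of the 25 acute phase probes 19 had a mean log2 signal over 16, as had 11 of the 12 hepatocyte markers. Over all 228 genes that bright the median was -0.17 under tetracycline and -0.25 under the other compounds, and 46.9% were called lower under tetracycline. The part of this brightness in the decreases was not tested. The acute phase median was -0.28 under the other compounds, and against them 7 members were called higher and 4 lower. Hpx and Crp were among those below the other compounds, by 0.57 and 0.37 (adjusted p = 0.00181 and 0.00487). The list median relative to the median gene was -0.76 under median centring, but 0.02 with the scanner log ratio and 0.01 in the series table. The signs of the list thus depend on scaling.

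**Figure D4:**
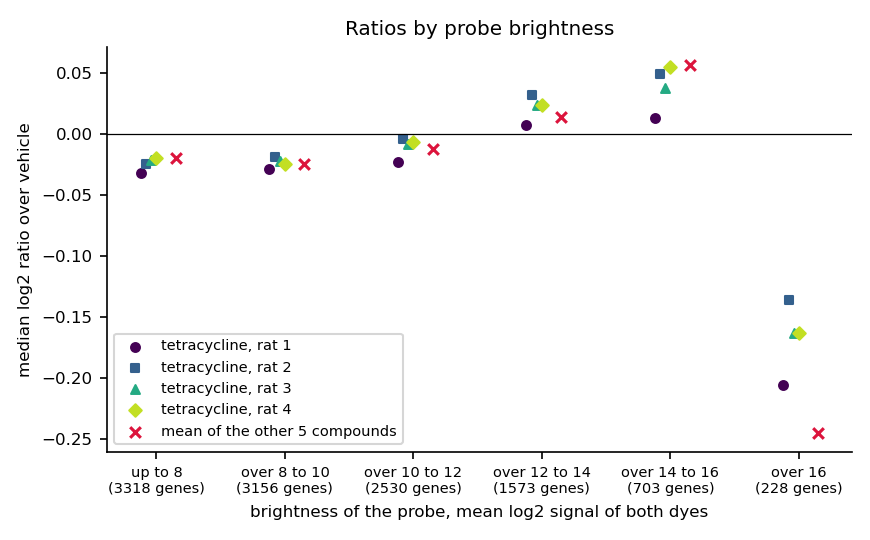
Median log2 ratio of treated over vehicle (y axis) by brightness of the gene's probe (x axis, mean log2 signal of both dyes), with 1 symbol for each tetracycline rat and a red cross for the mean of the other 5 compounds. In the brightest 228 genes all 4 rats and the other compounds lie below 0.

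Amino acid breakdown and the urea cycle held 11 called decreases among 31 members and no increase (median -0.15, and -0.56 relative to the median gene under median centring). Gpt, alanine aminotransferase, had -1.23, -0.35, -0.33 and -0.28, so rat 1 was far below the others and the mean was -0.32 without it, against -0.55 with it. It was below the other compounds by 0.55 (adjusted p = 0.00657). Hpd, of tyrosine breakdown, averaged -0.54, Ass1, of the urea cycle, -0.53, Gnmt, which uses up methyl groups, -0.43, and Mat1a, which makes S-adenosylmethionine, -0.41, although the other Mat1a probe averaged 0.22. Under the other compounds the list median was -0.30, below that of tetracycline, and 13 members were called higher in tetracycline than in the others against 2 lower. Among 17 genes of glutathione and one-carbon metabolism, Amt, of glycine cleavage, had -0.68, -0.32, -0.23 and -0.28, below the other compounds by 0.46 (adjusted p = 1.09e-05). Ggt1 (0.47) and Gss (0.35), of glutathione breakdown and synthesis, were called higher.

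Genes of detoxification were mostly lower under tetracycline than under the other compounds where the difference was called. Of 28 targets of Nrf2, the oxidative stress regulator, 8 were called higher and 2 lower (median 0.07, against 0.53 under the other compounds, relative median -0.13), and against the other compounds 16 were called lower and none higher. The Nrf2 list stood at 0.13 with the scanner log ratio and 0.11 in the series table, relative to the median gene. Nqo1, a quinone reductase, had 0.44, 0.50, 0.71 and 0.31 and was 1.11 below the others (adjusted p = 3.11e-07). Aldh1a1, retinal dehydrogenase, averaged 0.94, against 2.23 under the others, but its difference of -0.29 from hexachloroethane missed the test (adjusted p = 0.414). Gstm1 and Gstm3, glutathione transferases, were called lower at -0.33 and -0.48. Of 21 targets of the drug receptors CAR and PXR 4 were called higher and 2 lower (relative median -0.27), beside 14.1% and 19.8% of all genes. These targets stood at 0.17 with the scanner log ratio and 0.15 in the series table, relative to the median gene. In this list Ugt2b1, a glucuronosyltransferase, was at 1.41, 0.83, 1.03 and 0.76, a mean of 2.01-fold (adjusted p = 2.97e-07), 0.77 below the other compounds. Its 2 other probes averaged 0.34. The drug efflux pump Abcb1a had 1.09, 0.80, 0.40 and 0.21, and here tetracycline was above the others by 0.44 (adjusted p = 0.0366). Cyp3a23-3a1 was called lower at -0.40, a call lost without rat 2 or rat 4 (adjusted p = 0.104 and 0.102), and its 4 other probes averaged from -0.41 to 0.01. Sult2a6, a sulfotransferase of bile acids and steroids, had 1.73, 0.45, 1.01 and 0.46. Of 7 targets of the aryl hydrocarbon receptor Nqo1 alone was called.

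Nuclear genes for mitochondrial proteins moved in both directions, beside 14.1% of all genes called higher and 19.8% called lower. Of 39 subunits of oxidative phosphorylation 10 were called higher and 10 lower, larger shares than over all genes. Called shares also varied with probe brightness. Over the 703 genes with a mean log2 signal over 14 to 16 they were 27.0% higher and 17.5% lower. The part of brightness in the shares of this list was not tested. Cox4i2 was among those called higher, through its probe with the run. The list median was 0.00 (0.05 under the other compounds, and -0.32 relative to the median gene under median centring). With the scanner log ratio and with the series table it was 0.03 relative to the median gene. Cox5b, of cytochrome c oxidase, had -0.65, -0.27, -0.35 and -0.38 (adjusted p = 1.3e-06), and its other probe averaged 0.02. Ndufs8, of complex I, was at -0.26, while Ndufc2, of the same complex, was at 0.25. Of 20 proteins of the mitochondrial ribosome 5 were called higher, with Mrps34 at 0.33 and Mrpl37 at 0.30, and 6 lower, with Mrpl40 at -0.33 and Mrps18a at -0.28 (relative median -0.16). The other Mrpl37 probe averaged -0.26. Mrps18a had -0.24, -0.29, -0.26 and -0.32 and was below the other compounds by 0.40 (adjusted p = 7.88e-07). Of 16 genes of mitochondrial translation and quality control 4 were called higher, with the chaperone Hspa9 at 0.23 and the elongation factor Tufm at 0.14, and 3 lower, with the fusion proteins Mfn2 at -0.20 and Opa1 at -0.16 (relative median -0.23). With the scanner log ratio and with the series table this list stood at 0.04 relative to the median gene. The other Hspa9 probes averaged from -0.04 to 0.12, and the other Tufm probe averaged -0.02. Tfam, which maintains mitochondrial DNA, had 0.04, -0.05, -0.02 and -0.06 and was not called. No transcript encoded by mitochondrial DNA was examined.

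The integrated stress response, which is driven by ATF4, had 1 of 18 members called, the amino acid carrier subunit Slc3a2 at 0.21, a call lost without any 1 of the 4 rats (adjusted p from 0.0512 to 0.145). Asns, asparagine synthetase, had -0.11, 0.66, 0.16 and 0.48, the hormone gene Fgf21 had -0.11, 0.28, -0.29 and -0.28, and Ddit3, which encodes CHOP, had -0.13, 0.10, -0.31 and 0.06. None of the 3 was called, and the rats lay on both sides of 0. Against the other compounds Asns was lower by 0.95, the others averaging 1.25. Among 15 genes of the unfolded protein response 4 were called higher, with the chaperone regulator Dnajc3 at 0.41, 0.35, 0.27 and 0.65 (adjusted p = 1.85e-06) and Calr, calreticulin, at 0.31 (relative median of the list -0.20). With the scanner log ratio and with the series table this list stood at 0.08 relative to the median gene. The other Dnajc3 probe averaged 0.05. Dnajb9, a co-chaperone, was called lower at -0.50. Of 9 heat shock genes Dnajb1 (-0.39) and Dnaja1 (-0.26) were called lower and Hsph1 (0.24) higher, a call lost without rat 1, rat 3 or rat 4 (adjusted p = 0.14, 0.0754 and 0.0902). The 25 measured subunits of the proteasome had 11 called higher and 1 lower (median 0.06, against 0.24 under the other compounds), with Psma6 at 0.38, Psmd1 at 0.32 (other probe -0.09) and Psmd3 at 0.32, and 20 of the 25 were called lower than under hexachloroethane. The relative median of the proteasome list was -0.20, and median centring called 0 of the 25 higher and 25 lower. With the scanner log ratio the list median relative to the median gene was 0.07, with 9 called higher and 1 lower. In the series table it was 0.05, with 9 called higher and 0 lower.

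For haem and metals, 4 of 10 haem genes were called higher (relative median -0.25), beside 14.1% of all genes. The haem list stood at 0.06 with the scanner log ratio and 0.05 in the series table, relative to the median gene. Alad, the second enzyme of haem synthesis, which needs zinc, had 0.44, 0.29, 0.39 and 0.40, above the other compounds by 0.32 (adjusted p = 0.00131), and Urod (0.21), which follows in that pathway, was also called higher. Hpx and Hp, the plasma haem and haemoglobin scavengers, were the 2 called lower. Of 20 genes for zinc, copper and iron 4 were called higher and 4 lower, with the copper carrier Slc31a1 at 0.23, the iron sensor Tfr2 at 0.19, and the iron carriers Tf at -0.68 and Slc11a2 at -0.20. Metallothionein, Mt1, which binds zinc and copper, had 1.19, 1.46, 0.87 and -0.11. Rat 4 lay below 0, so Mt1 was not called although its adjusted p was 0.0142. Tfrc, the transferrin receptor, was not called (0.25), and Hamp, which encodes hepcidin, was not measured by a kept probe.

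Of 21 measured genes of DNA replication and mitosis 4 were called lower and none higher, a share close to the 19.8% of all genes called lower, and the list medians were -0.55, -0.28, -0.28 and 0.13 in rats 1 to 4. The mitotic genes Ccnb1 and Cdc20 had -0.82, -0.77, -1.03 and -0.01 and -0.93, -0.56, -0.88 and -0.26, and the kinases Aurkb and Aurka averaged -0.54 and -0.38. The Ccnb1 call was lost without rat 1, rat 2 or rat 3 (adjusted p = 0.0693, 0.0604 and 0.095) and the Aurkb call without rat 1 or rat 3 (adjusted p = 0.0615 and 0.0734). Without rat 4, 10 members were called lower, and without rat 1 or rat 3, 2 were. Against the other compounds, whose list median was 0.15, 10 members were called lower and 1 higher. Relative to the median gene the list median was -0.05 under median centring. Of 15 p53 targets Bax (0.17), Ccng1 (0.17) and Zmat3 (0.14) were called higher and Sesn1 (-0.30) lower. The Sesn1 call was lost without rat 2 or rat 4 (adjusted p = 0.091 and 0.11), and the Zmat3 call without any 1 of the rats (adjusted p from 0.0504 to 0.15). Other probes ran the opposite way at -0.16 for Zmat3, 0.09 for Sesn1 and -0.11 for 2 of 4 in Ccng1.

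Of 22 measured genes that sense or answer bacterial products 5 were called lower and none higher (median -0.03), again close to the 19.8% of all genes called lower. Against the other compounds 4 members were called higher and 2 lower. Cd14, the lipopolysaccharide co-receptor, had -0.05, -0.51, -0.17 and -0.88, so rats 2 and 4 were low and rats 1 and 3 near 0, and its call was lost without rat 2 or rat 4 (adjusted p = 0.083 and 0.197), the mean being -0.24 without rat 4. It was below the other compounds by 0.63 (adjusted p = 0.0026). The chemokine Ccl5 averaged -0.38, and Nfkb1 (-0.21), Tlr4 (-0.19) and Nfkb2 (-0.13), of the receptor and its NF-kB pathway, were lower by less. The Tlr4 and Nfkb2 calls were lost without any 1 of the rats (adjusted p from 0.0609 to 0.0861 and from 0.0712 to 0.12). The relative median was 0.08, and the other Nfkb2 probes averaged 0.05 and -0.04. The list stood at -0.04 with the scanner log ratio and -0.05 in the series table, relative to the median gene. Of 15 interferon response genes Irf9 (-0.20) was called lower and none higher, a call lost without rat 2, rat 3 or rat 4 (adjusted p = 0.112, 0.0727 and 0.0749). Among 13 clock genes Per2 (-0.45), Wee1 (-0.34) and Cry1 (-0.26) were called lower (relative median -0.19), and each call was lost without rat 1 (adjusted p = 0.165, 0.0513 and 0.117). Further losses were Per2 without rat 2 (adjusted p = 0.186), Wee1 without rat 3 (0.0523), and Cry1 without rat 3 or rat 4 (0.104 and 0.0748). The circadian time of death is not given in the labels.

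Markers of cell types other than hepatocytes were also measured. Of 16 stellate cell and fibrosis genes 6 were called lower and none higher, beside 19.8% of all genes called lower, with a median of -0.20 (-0.06 under the other compounds, and -0.32 relative to the median gene under median centring) and list medians of -0.26, -0.22, -0.15 and -0.11 in rats 1 to 4. Sparc, a matrix glycoprotein, had -0.40, -0.41, -0.37 and -0.50, Col4a1, of basement membrane collagen, averaged -0.39, and the collagenase inhibitor Timp1 had -0.24, -0.21, -0.22 and -0.25. Timp1, Col4a1, the crosslinking enzyme Loxl1 (-0.29) and the growth factor Tgfb1 (-0.22) were also below the other compounds (adjusted p = 0.00387, 0.0139, 0.00203 and 0.000347), while 2 of the 16 were called higher than under the other compounds. Against hexachloroethane 3 were called higher and none lower. Of 11 Kupffer cell markers Slc11a1 (-0.38) was called lower, of 11 lymphocyte markers Cd74 (-0.47), Gzmb (-0.20) and Lck (-0.16), and of 2 neutrophil markers S100a8 (-0.30). The lymphocyte calls were lost without any 1 of the rats (adjusted p from 0.0513 to 0.152), the Slc11a1 call without rat 1 or rat 4 (0.0868 and 0.0699), the Loxl1 call without rat 1 or rat 3 (0.0933 and 0.0606) and the S100a8 call without rat 4 (0.0818). Of 6 endothelial markers Kdr, the receptor of vascular endothelial growth factor, was called higher at 0.52, 0.33, 0.49 and 0.31 (above the others by 0.37, adjusted p = 0.000741), and of 8 bile duct markers Epcam was higher at 0.39, a call lost without rat 1 (adjusted p = 0.0613). None of 5 erythroid markers was called, nor was the 1 measured pancreatic acinar gene. By position in the liver lobule, 4 of 14 periportal genes were called lower and none higher (median -0.23, against -0.64 under the other compounds, relative median -0.57), and of 13 perivenous genes Aldh1a1 alone was called, higher (median 0.02, against -0.25). Of 25 cytosolic ribosomal protein genes 9 were called higher and 2 lower, with a median of 0.04 (-0.28 relative to the median gene under median centring). With the scanner log ratio the list stood at 0.13 relative to the median gene, with 10 called higher and 2 lower. In the series table it stood at 0.14, with 12 called higher and 2 lower. Near-identical copies of ribosomal genes can share a probe's signal.

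Small changes that agreed closely in all 4 rats were also found in genes outside these lists. Gmppa, a regulatory subunit of the enzyme that makes GDP-mannose for glycosylation, had -0.58, -0.76, -0.73 and -0.69, a mean of 1.61-fold below vehicle (adjusted p = 1.04e-09). The other compounds averaged 0.00 and the difference was -0.69 (adjusted p = 5.73e-09). That average covers -0.50 under hexachloroethane, -0.11 under monuron, -0.09 under 1-amino-2-methylanthraquinone, 0.17 under 1,2-dichlorobenzene and 0.54 under 1,2,3-trichloropropane. Gmppa was thus lower under hexachloroethane too. Slc20a2, a phosphate carrier, had 0.43, 0.37, 0.44 and 0.39, above the other compounds by 0.44 (adjusted p = 4.72e-07) and above hexachloroethane by 0.35 (adjusted p = 0.000212). Its other probe averaged -0.02. Plcg1, a phospholipase of receptor signalling, had 0.40, 0.40, 0.33 and 0.52, and the chromatin protein gene Sfmbt1 had 0.30, 0.50, 0.42 and 0.49. Both were above the other compounds and above hexachloroethane. Napa, of vesicle fusion, had -0.38, -0.37, -0.41 and -0.42, with its other probe at 0.03, and Med24, a subunit of the Mediator complex, had -0.40, -0.44, -0.32 and -0.31. Osbpl2, an oxysterol-binding protein, averaged -0.37 and its other probe -0.40. Ahcyl1 (0.48) and Ywhaz (0.43) were above the others by 0.12 and 0.24, and the other Ywhaz probe averaged -0.11.

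Against the mean of the other 5 compounds 3778 genes were called (32.8%), 1745 higher in tetracycline (15.2%) and 2033 lower (17.7%). Beside Gsta3, described above, several of the largest differences were in genes not called against vehicle. Cyp3a9, a cytochrome P450, was at -0.16, 0.02, 0.22 and -0.84 under tetracycline, and the other compounds averaged -2.35 (difference 2.16, adjusted p = 5.16e-06). Its 2 other probes averaged -0.63 and -0.65 under tetracycline. From hexachloroethane alone Cyp3a9 differed by 0.58, which missed the test (adjusted p = 0.252). Inmt, a methyltransferase, was at -0.11, -0.21, 0.43 and -0.30, against -2.18 under the others, and Oat, ornithine aminotransferase, at -0.26, -0.37, -0.00 and -0.11, against -2.19. None of the 3 was called against vehicle. Sgk1, a kinase induced by glucocorticoids, was split between rats, at -0.04, 0.93, -0.07 and 2.00, against -1.14 under the others. Dusp1, a phosphatase that switches off stress kinases, was at 0.47, 0.55, 1.11 and -0.26, against -1.37. On the other side, Akr7a3, an aldo-keto reductase, was at -0.10, 0.10, 0.09 and -0.41 under tetracycline and averaged 2.35 under the others. Cyp1a1, the classic target of the aryl hydrocarbon receptor, averaged 0.01, against 2.59, and Grin2c, a glutamate receptor subunit, 0.07, against 2.68. Under tetracycline Cyp1a1 lay well above background in 1 of 4 treated channels and 3 of 4 vehicle channels, and Grin2c in 2 and 3.

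**Figure D5:**
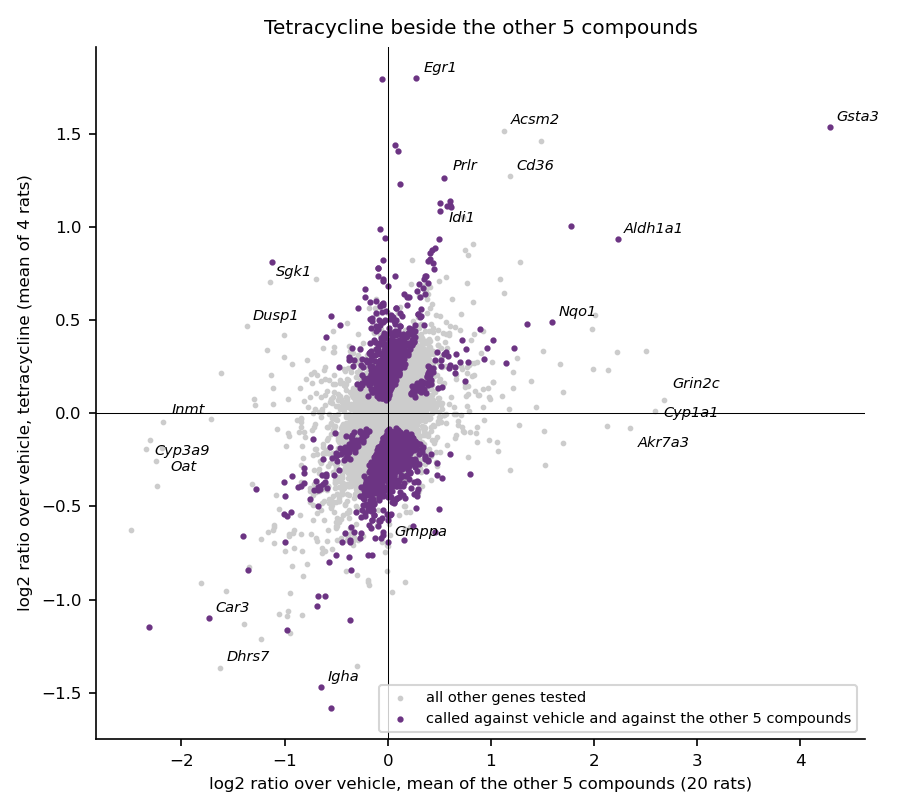
Log2 ratio over vehicle for each of 11508 genes, tetracycline (y axis, mean of 4 rats) beside the mean of the other 5 compounds (x axis, 20 rats), with genes called in both comparisons in purple and all others in grey. Gsta3 lies at 1.54 under tetracycline and 4.28 under the others, and Cyp3a9, Inmt and Oat lie between -0.19 and -0.05 on the y axis and between -2.35 and -2.18 on the x axis.

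Within the shared scan day, 2012 genes were called between tetracycline and hexachloroethane (17.5%), 1052 higher in tetracycline (9.14%) and 960 lower (8.34%). Oat was 2.02 log2 units higher in tetracycline (adjusted p = 0.00144) and Car3 1.82 (adjusted p = 0.000176). Mt1 was 1.72 higher (adjusted p = 0.00304), the mean under hexachloroethane being -0.87. Ugt2b1 was 1.42 lower in tetracycline (adjusted p = 1.04e-06), with a mean of 2.43 under hexachloroethane. Gmppa, Slc2a2, Slc10a1 and Slco1a4 kept their direction in this comparison and passed its test. For Gmppa the difference was small, at -0.19 (adjusted p = 0.0393), the mean under hexachloroethane being -0.50.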

How the data were processed

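The authors deposited 1 scanner file per array, with mean signals and local backgrounds of both dyes as intensity and a log10 ratio of Cy5 over Cy3 per the file headers, and a series table of log2 ratios. Outlier and background flags are the deposited 0 or 1 marks. Signals were read with Agilent Feature Extraction 9.1.3.1, per the submitters' processing notes. Per the labels, Cy3 held treated and Cy5 pooled vehicle RNA on all 24 arrays, with no dye swap. Replicates are separate rats per the labels.

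In R 4.3.3, limma 3.58.1 corrected background (normexp, offset 50) and scaled each array by loess with control spots at weight 0. Outlier spots were left out, which took 0 to 48 spots per tetracycline array, and 2 spots per probe were averaged. Of 21900 probes, 16085 lay well above background on all 4 arrays of some compound and were kept. The brightest kept probe stood for its gene. Design names were brought up to date with RefSeq's GRCr8 gene table, used for names alone: the match was by present symbol for 6176 probes, by former symbol for 1918, by accession for 901 and by gene ID for 621. Another 151 kept the design's name, and 12133 had none. Of 11508 genes tested, 4776 had a symbol. All 24 arrays entered 1 fit (lmFit, eBayes, 18 residual degrees of freedom, Benjamini-Hochberg over all genes). Named genes were the 12 largest called changes in each direction, the 8 most significant under 2-fold, up to 5 called members of each list, a set of key genes, and the 8 largest differences from the other compounds, leaving out provisional names. A selection of these is given, and some genes are not reported here. The members, lists and tests were chosen with earlier results of these data known. The fit was tested on simulated data. In the series table, the tetracycline columns correlated with the scanner log ratio of their own array at 0.685, 0.919, 0.810 and 0.887, lowest for rat 1. The number of arrays limits precision, as do the single vehicle pool and the lack of a dye swap. Alternatives covered the scaling, the values used, the probe filter and choice, the fit, a replicate block each rat left out and, added after the data were seen, centring on the genes tested and leaving out the probes with the run.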

Additional observations from a re-analysis of the deposited data

Results flagged for a closer look

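In 7 of 148 named genes 1 tetracycline rat lay far from the other 3, judged by its gap to the nearest rat over the whole range against Dixon's critical value for 4 values, and chance flags about 1 in 20 groups. The log2 ratios of those rats were -1.23 for Gpt and -0.55 for Mat1a in rat 1, 0.11 for Gpam and 0.23 for Psmd3 in rat 2, and -0.51 for Dnajb1, 0.070 for Ebp and 0.39 for Hspa9 in rat 4. All 7 genes kept their call without the rat in question.

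Effects differed between compounds in a test of the difference itself. For 3778 genes tetracycline stood apart from the 5 comparison compounds averaged together, and for 2012 genes from hexachloroethane alone.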

How the results depend on the processing

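Under median centring on all probes 8804 genes were called against vehicle (29.5% of them higher, against 41.7% under loess), and 1309 against hexachloroethane (82.7% higher, against 52.3%), while against the other 5 compounds 2838 were called (68.7% higher, against 46.2%). Centring on the genes tested, added after the data were seen, gave 7325 (52.2% higher), 1345 (59.3% higher) and 2989 (53.1% higher). At an unadjusted p under 0.001 with the same sign in all rats, 2299 genes were called against vehicle. Leaving out 1 tetracycline rat gave 3261 to 3640 genes against vehicle, 2942 to 3226 against the other compounds and 1484 to 1898 against hexachloroethane. The other counts stayed within 1.5 times. Signs against vehicle turned for 39 of 148 named genes under median centring on all probes, with log2 values of Abcb11 -0.24, Acaa2 -0.37, Ahcyl1 -0.013, Alad -0.32, Bax -0.085, Calr -0.22, Ccng1 -0.24, Decr1 -0.26, Dgat1 -0.26, Dnajc3 -0.21, Ebp -0.24, Etfb -0.38, Fdft1 -0.093, Gckr -0.51, Gss -0.11, Gzmb 0.0081, Hspa9 -0.39, Hsph1 -0.25, Kdr -0.13, Mrpl37 -0.21, Mrps34 -0.25, Ndufc2 -0.28, Plcg1 -0.0070, Plin2 -0.25, Psma6 -0.24, Psmd1 -0.28, Psmd3 -0.26, Slc10a1 -0.29, Slc20a2 -0.078, Slc27a2 -0.45, Slc2a2 -0.0016, Slc31a1 -0.38, Slc3a2 -0.19, Slco1a4 -0.14, Tfr2 -0.47, Tgfb1 0.036, Tufm -0.45, Urod -0.32, Zmat3 -0.10. They turned for 28 under centring on the genes tested, with Abcb11 -0.021, Acaa2 -0.15, Alad -0.10, Ccng1 -0.019, Decr1 -0.042, Dgat1 -0.037, Ebp -0.021, Etfb -0.16, Gckr -0.29, Gzmb 0.23, Hspa9 -0.17, Hsph1 -0.031, Lck 0.067, Mrps34 -0.031, Ndufc2 -0.058, Plin2 -0.032, Psma6 -0.015, Psmd1 -0.060, Psmd3 -0.042, S100a8 0.20, Slc10a1 -0.068, Slc27a2 -0.23, Slc31a1 -0.16, Tfr2 -0.24, Tgfb1 0.26, Tlr4 0.16, Tufm -0.23, Urod -0.097. Further reversals were Zmat3 -0.011 with the mean of a gene's probes, Fbp1 0.027 in the series table, and Cox4i2 -0.056, St8sia1 -0.18 and Tlr9 -0.053 without the probes that hold GCCTGCC, also added after the data were seen. The cause was not tested. Of 2069 values of named genes under alternatives 1834 kept sign and side of the threshold. Replicate numbers gave no clear pairing of the rats. Of 20 pairs of a tetracycline rat with the same-numbered rat of another compound, 6 had deviations correlated over 0.1 (range -0.19 to 0.23). In 8 of the 20 pairs the same-numbered rat correlated best among the 4 rats of that compound. With the replicate number as a block, 3864 genes were called against vehicle, 3769 against the other compounds and 2039 against hexachloroethane. Signal over background limits dim probes: without the filter on them 15349 genes were tested and 4282 called against vehicle.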
